A study of Rattus norvegicus with 26 samples.

Results

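Alb, Ttr, Tf, Ambp, Asgr1, Asgr2, F9 and Rnase4 are 8 rat genes grouped here for products that hepatocytes secrete or carry on their surface. Whether each is particular to hepatocytes was not tested. Every array probe set that the platform's table assigns to 1 of these genes alone was taken, which gave 13 of 8740 probe sets for 7 of the 8 genes. Tf occurred on 3 probe sets that also list Srprb, so no value is given for it. Of the 13 probe sets, 12 passed a filter on dim signals (second-highest value of the 26 arrays above 3.71 log2, the median of all values) and were tested among 5197 probe sets. The 13th, 1 of 4 for Alb, read 2.53 to 2.98 on every array, while the other 3 for Alb read 12.74 to 14.501.

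Hepatocytes make most of the proteins of blood plasma, and the genes for them are kept on by liver-enriched transcription factors such as HNF1, HNF4 and the C/EBP proteins. Isolated hepatocytes tend to lose this expression as they dedifferentiate in culture. The aryl hydrocarbon receptor (AhR), the receptor for dioxins, pairs with ARNT after binding a ligand and acts on DNA elements that contain a short core sequence.

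The study compared dose responses to TCDD, a chlorinated dioxin, and PCB 126, a coplanar chlorinated biphenyl, both AhR ligands. Primary liver cells of female Sprague Dawley rats, in 2 pools of 3 animals each, were exposed for 48 h, and total RNA was measured on 26 short-oligonucleotide arrays. Vehicle cultures received 0.5% DMSO and had 1 array per pool. TCDD was tested at 7 doses: 0.01 pM, 1 pM, 10 pM, 0.1 nM, 1 nM, 10 nM, 316 nM. The 7 doses of PCB 126 were 1 pM, 10 pM, 0.1 nM, 1 nM, 10 nM, 1000 nM, 10000 nM. Each dose had an array of either pool, except 10 pM and 1 nM, which had pool 2 alone. There were thus 11 arrays of pool 1 and 15 of pool 2, and the number of arrays limits the precision. A pool mixes the cells of its animals and is 1 biological unit, and the p-values take arrays, not animals, as replicates.

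Values are log2 expression, and a value after ± is the limma standard error, or the SD where SD is written. Adjusted p-values are from limma with Benjamini-Hochberg adjustment over 5197 probe sets, and a probe set is called below 0.05. A slope is the log2 change per decade (10-fold step) of dose within 1 chemical, with the pool as a term. Where arrays of a gene are said to lie above or below others, the share of all probe sets that separate so was not counted. In bulk RNA, fewer cells of a type and less RNA per cell cannot be told apart.

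The actin 3' minus 5' signal, a measure of RNA quality, differed by pool, with 0.82 ± 0.12 log2 (SD) over the 11 arrays of pool 1 and 1.51 ± 0.22 (SD) over the 15 of pool 2. The highest of pool 2, 2.19, was the 10 pM TCDD array, and all TCDD values at that dose rest on it. Over all probe sets, 2 arrays departed most from their pool's other arrays, 0.1 nM TCDD of pool 1 and 10000 nM PCB 126 of pool 2. Next in pool 2 came the 10 pM TCDD array, which is not among the 3 arrays left out together below. It was absent from its own leave-out, from pool 1 alone, from doses with both pools and from fits of the PCB 126 arrays alone. The array labelled 1 pM PCB 126 of pool 2 read 10.80 for the AhR target Cyp1a1, against 3.21 in pool 1 and 7.91 at 10 pM. It thus goes against the place of its label in the dose order. It was used as labelled, and whether the label is right was not tested. Calls that change without the 3 arrays that stood apart, this one and the 2 that departed most, are given both ways. The 0.01 pM TCDD array of pool 2, used with vehicle as a low control in places, read 5.66 for Cyp1a1. Its vehicle array read 3.28, and the same dose in pool 1 read 3.33. Of 66 listed markers of macrophages, endothelium, stellate cells, cholangiocytes and blood cells, 29 passed the filter. Of these, 2 were called with TCDD dose and 2 with PCB 126 dose, beside 2.93% and 3.89% of 3034 genes. The summed level (log2 of summed linear values) of 6 macrophage markers was 9.48 and 9.9995 in vehicle, 9.98 to 11.40 at the 2 highest TCDD doses and 9.95 to 10.92 at the 2 highest PCB 126 doses. Ccl2, a chemokine gene and the brightest of the 6, rose with TCDD dose by 0.29 ± 0.06 per decade (adjusted p = 0.00484, limma) and had 0.16 ± 0.06 with PCB 126 (adjusted p = 0.116, limma). The lysozyme gene Lyz2, the next in brightness, fell with both, by 0.19 ± 0.04 and 0.17 ± 0.04 (adjusted p = 0.00915 and 0.0222, limma). The other 4 were not called with either chemical. For 10 stellate cell and fibroblast markers it was 12.99 and 13.44 in vehicle, 12.96 to 13.08 with TCDD and 12.13 to 12.94 with PCB 126. For 3 endothelial markers it was 5.04 and 5.57, 4.88 to 5.44 and 5.04 to 5.51, in the same order. For 8 cholangiocyte markers it was 13.80 and 14.08, 13.69 to 13.86 and 13.41 to 13.83. For 2 blood cell markers it was 4.59 and 5.58, 4.45 to 5.09 and 4.53 to 5.33. The stellate cell marker Tagln fell with PCB 126 dose by 0.48 ± 0.09 per decade (adjusted p = 0.00549, limma). With TCDD it had -0.28 ± 0.09 (adjusted p = 0.118, limma). The part of these cells in the results was not tested.

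With rising TCDD dose, Ambp fell on both of its probe sets. Of the 12 probe sets, 3 were called lower with TCDD (25%), both for Ambp and the 1 for Asgr2, against 1.46% of all probe sets, and 0 were called higher against 1.64%. Asgr2 passed the filter through vehicle and low-dose arrays, as described with its values, so its call is not counted as support. Without it, 2 of 11 were called lower with TCDD (18.2%), both for Ambp. With rising PCB 126 dose, Rnase4 and F9 fell, as did 1 of the probe sets for Ambp. These 3 of 12 compare with 2.69% of all probe sets called lower, and 0 members were called higher against 1.56%. Without Asgr2, the median slope of the other 11 was -0.077 with TCDD and -0.093 with PCB 126, beside -0.0094 and 0.0060 over all probe sets. Slopes of these 11 were negative for 10 with TCDD (63.4% of all) and for 11 with PCB 126 (43.7% of all). The members were chosen with earlier results of these data known, so the shares set beside all probe sets are a description.

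**Figure D1:**
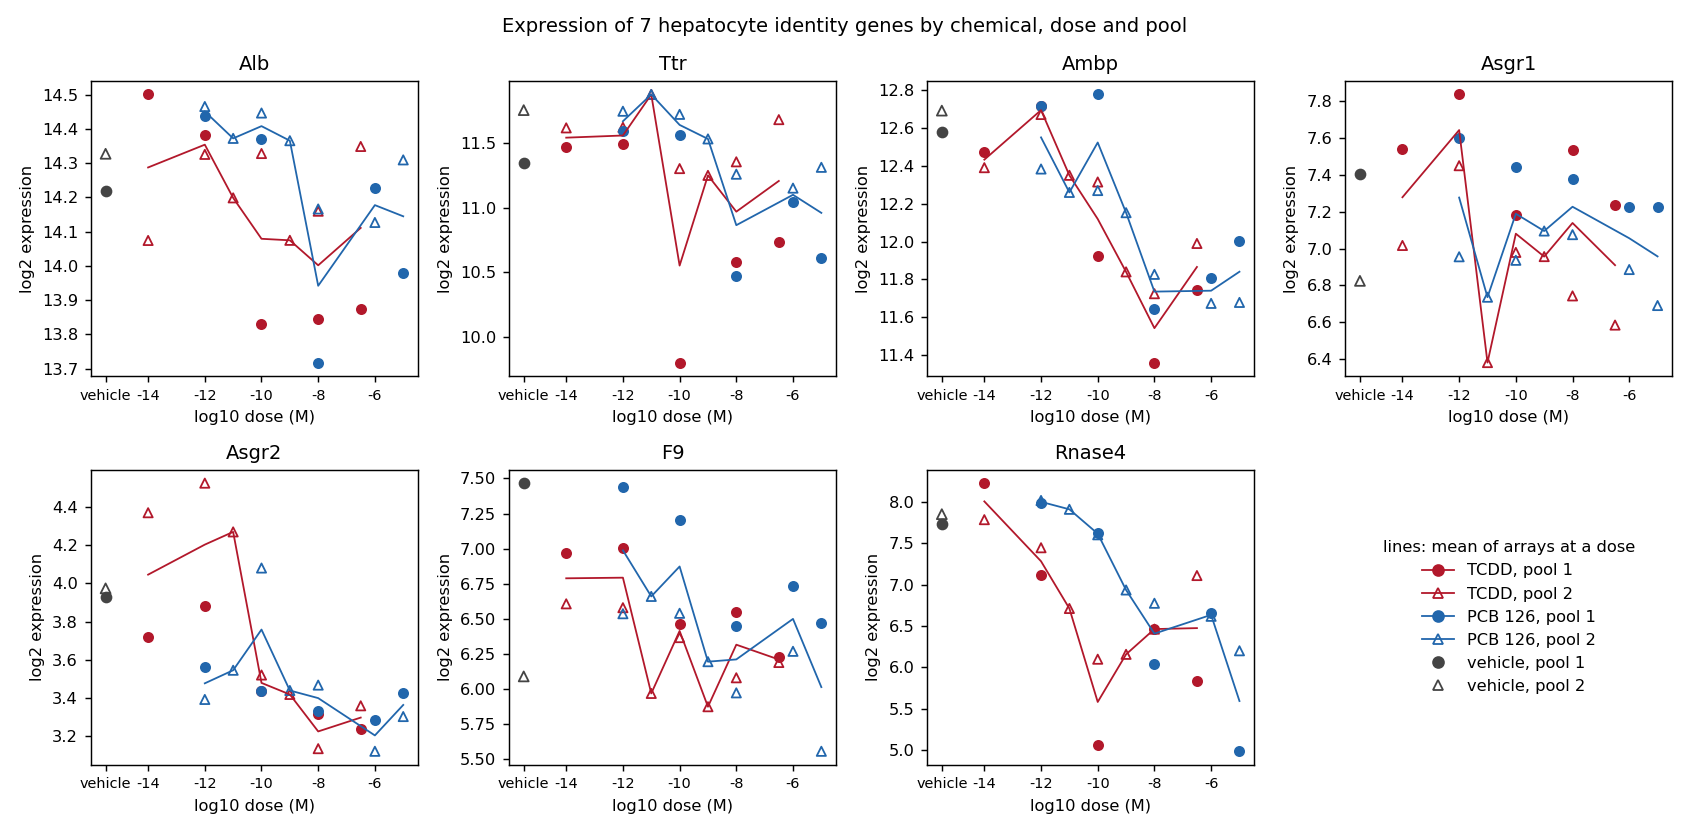
Log2 expression of 7 genes (brightest probe set of each) against log10 molar dose, with vehicle at the left, filled circles for pool 1, open triangles for pool 2 and lines through the mean of the arrays at a dose. Rnase4 is at 7.73 and 7.85 in vehicle and ends between 4.99 and 6.20 at the highest PCB 126 dose, while Alb stays between 13.72 and 14.501 throughout.

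Rnase4 encodes a small secreted ribonuclease that shares its locus with the angiogenin gene. Its vehicle arrays read 7.73 in pool 1 and 7.85 in pool 2. With TCDD in pool 1 it read 8.23 at 0.01 pM, 7.12 at 1 pM, 5.06 at 0.1 nM, 6.46 at 10 nM and 5.84 at 316 nM. In pool 2 the TCDD series was 7.79 at 0.01 pM, 7.45 at 1 pM, 6.71 at 10 pM, 6.10 at 0.1 nM, 6.16 at 1 nM, 6.46 at 10 nM and 7.11 at 316 nM. Every TCDD array from 1 pM upward lay below both vehicle arrays, and both pools were lowest at 0.1 nM rather than at the top dose. PCB 126 gave 7.98 at 1 pM, 7.63 at 0.1 nM, 6.04 at 10 nM, 6.65 at 1000 nM and 4.99 at 10000 nM in pool 1. In pool 2, PCB 126 gave 8.02 at 1 pM, 7.91 at 10 pM, 7.60 at 0.1 nM, 6.94 at 1 nM, 6.78 at 10 nM, 6.62 at 1000 nM and 6.20 at 10000 nM. With PCB 126 the arrays up to 10 pM lay above both vehicle arrays and those from 0.1 nM upward below both.

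The Rnase4 slope was -0.31 ± 0.06 per decade with PCB 126 (adjusted p = 0.00571, limma). In pool 1 it was -0.37 ± 0.10 and in pool 2 -0.26 ± 0.09. With TCDD the slope was -0.21 ± 0.06 (adjusted p = 0.0612, limma) and missed the threshold. Fitted within each pool, it was -0.29 ± 0.09 in pool 1 and -0.14 ± 0.09 in pool 2. The Rnase4 TCDD slope was -0.14 ± 0.07 without the array of 0.01 pM of pool 1 (adjusted p = 0.390, limma) and -0.21 ± 0.08 on the TCDD arrays alone (adjusted p = 0.263, limma). It was called without the 3 arrays that stood apart (-0.21 ± 0.05, adjusted p = 0.0259, limma), without the array of 0.1 nM of pool 1 (-0.21 ± 0.05, adjusted p = 0.0180, limma) and without that of 316 nM of pool 2 (-0.28 ± 0.06, adjusted p = 0.00698, limma). Without the highest dose of each chemical it was -0.32 ± 0.07 with TCDD (adjusted p = 0.0119, limma), and the PCB 126 slope was then -0.27 ± 0.07 and no longer called (adjusted p = 0.0537, limma). The difference of the slopes, TCDD minus PCB 126, was 0.10 ± 0.09 (95% interval -0.08 to 0.28), so the straight-line slopes were not shown to differ. These slopes cover unlike dose ranges.

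Against vehicle, the mean of the 2 highest PCB 126 doses differed for Rnase4 by -1.68 ± 0.33 log2 (adjusted p = 0.00981, limma), to 0.313 of vehicle. The same contrast for TCDD was -1.32 ± 0.33 (adjusted p = 0.0511, limma), or 0.400 of vehicle, and was not called. Without the 3 arrays that stood apart it was -1.32 ± 0.30 and called (adjusted p = 0.0387, limma). In single dose groups against vehicle, Rnase4 fell at 0.1 nM TCDD, with -2.21 ± 0.38 (adjusted p = 0.00854, limma) and at 10000 nM PCB 126, with -2.20 ± 0.38 (adjusted p = 0.0042, limma). Each of those groups holds 1 of the arrays that stood apart. In the array of the same dose from the other pool, Rnase4 was at 6.10 and 4.99, also below both vehicle arrays. All these contrasts use the same pair of vehicle arrays.

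The base sequence before the Rnase4 start is shown because it holds the AhR core GCGTG, the only match to that core among the 7 genes with a listed promoter. Asgr2 had no entry in the promoter table. Sequences are from RefSeq, build GRCr8, the 250 bases before the annotated start on the gene's strand, and cover chr15:26786037-26786286, plus strand for Rnase4, chr5:81593858-81594107, minus strand for Ambp, chrX:143388392-143388641, plus strand for F9 and chr14:17906980-17907229, minus strand for Alb. Ambp and F9 are shown as the other called genes with an entry, and Alb as the secreted protein gene with slopes nearest 0. Capitals mark 3 motifs, each searched on both strands. They are the AhR core, the core GTTAAT of sites for HNF1, and the core AGGTCA of sites for nuclear receptors. No marked match overlaps another.
Rnase4: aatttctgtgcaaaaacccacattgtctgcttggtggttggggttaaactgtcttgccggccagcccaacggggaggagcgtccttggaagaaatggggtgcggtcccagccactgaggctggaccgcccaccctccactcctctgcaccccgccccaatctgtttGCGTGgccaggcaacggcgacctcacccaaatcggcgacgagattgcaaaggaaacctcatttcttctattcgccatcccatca
Ambp: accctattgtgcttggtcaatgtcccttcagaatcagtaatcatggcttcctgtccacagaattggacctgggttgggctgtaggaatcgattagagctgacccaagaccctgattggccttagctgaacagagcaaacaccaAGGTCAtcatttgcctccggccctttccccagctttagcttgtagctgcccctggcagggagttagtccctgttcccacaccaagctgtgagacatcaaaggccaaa
F9: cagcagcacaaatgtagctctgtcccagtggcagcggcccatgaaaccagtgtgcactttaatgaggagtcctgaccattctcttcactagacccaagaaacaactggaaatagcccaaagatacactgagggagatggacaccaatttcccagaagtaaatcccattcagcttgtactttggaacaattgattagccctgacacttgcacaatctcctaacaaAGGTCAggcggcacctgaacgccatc
Alb: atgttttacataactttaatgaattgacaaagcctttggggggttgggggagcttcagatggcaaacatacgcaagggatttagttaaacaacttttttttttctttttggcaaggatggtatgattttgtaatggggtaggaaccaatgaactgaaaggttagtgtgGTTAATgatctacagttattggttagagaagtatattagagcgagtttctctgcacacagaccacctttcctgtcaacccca
GCGTG lies 84 to 80 bases before the Rnase4 start and was found in 25.9% of 33469 promoters of the same length. AGGTCA was found in 4 of the 7 promoters, those of Tf, Ambp, Asgr1 and F9, and in 14.1% of all. It lies 107 to 102 bases before the start in Ambp and 26 to 21 in F9. GTTAAT was found in Alb alone of the 7, 82 to 77 bases before the start, and in 6.45% of all. These are matches of letters, and no binding was measured.

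Ambp encodes a precursor that is cleaved into alpha-1-microglobulin, a heme-binding lipocalin, and bikunin, a protease inhibitor. The brighter of its probe sets read 12.58 and 12.69 in vehicle, pool 1 first. In pool 1 TCDD gave 12.47 at 0.01 pM, 12.72 at 1 pM, 11.92 at 0.1 nM, 11.36 at 10 nM and 11.74 at 316 nM. In pool 2 it gave 12.39 at 0.01 pM, 12.67 at 1 pM, 12.35 at 10 pM, 12.31 at 0.1 nM, 11.84 at 1 nM, 11.72 at 10 nM and 11.99 at 316 nM. The lowest value came at 10 nM in both pools. The 4 arrays of the 2 highest TCDD doses read 11.36 to 11.99, against 12.39 to 12.69 in vehicle and the lowest dose. PCB 126 gave 12.72 at 1 pM, 12.78 at 0.1 nM, 11.64 at 10 nM, 11.81 at 1000 nM and 12.003 at 10000 nM in pool 1. Its pool 2 series was 12.38 at 1 pM, 12.26 at 10 pM, 12.27 at 0.1 nM, 12.15 at 1 nM, 11.83 at 10 nM, 11.67 at 1000 nM and 11.68 at 10000 nM. Pool 1 dropped between 0.1 nM and 10 nM, and pool 2 was lower than its vehicle array at every dose of PCB 126.

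Ambp fell with TCDD dose by 0.13 ± 0.03 per decade on each of its probe sets (adjusted p = 0.0153 and 0.0108, limma). With PCB 126 the brighter probe set fell by 0.12 ± 0.03 (adjusted p = 0.0168, limma), and the dimmer one had -0.093 ± 0.030 (adjusted p = 0.0747, limma). Within pools the TCDD slope of the brighter set was -0.15 ± 0.04 in pool 1 and -0.10 ± 0.04 in pool 2. At the 2 highest TCDD doses it was lower than vehicle by -0.93 ± 0.17 log2 (adjusted p = 0.00848, limma), and at those of PCB 126 by -0.84 ± 0.17 (adjusted p = 0.0127, limma). Across both probe sets, 26 arrays and the pool means removed, r was 0.92, a description of arrays that share their labelled RNA. Without the 3 arrays that stood apart, the PCB 126 slope was -0.13 ± 0.04 and not called (adjusted p = 0.0660, limma).

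F9 encodes coagulation factor IX, a vitamin K-dependent serine protease. Its vehicle arrays were far apart, 7.47 in pool 1 and 6.09 in pool 2. With TCDD it read 6.97 at 0.01 pM, 7.01 at 1 pM, 6.46 at 0.1 nM, 6.55 at 10 nM and 6.23 at 316 nM in pool 1. In pool 2 it read 6.61 at 0.01 pM, 6.58 at 1 pM, 5.97 at 10 pM, 6.37 at 0.1 nM, 5.87 at 1 nM, 6.08 at 10 nM and 6.19 at 316 nM. Every treated array of pool 1 lay below its vehicle array, whereas the pool 2 arrays lay on both sides of theirs. PCB 126 gave 7.44 at 1 pM, 7.21 at 0.1 nM, 6.45 at 10 nM, 6.73 at 1000 nM and 6.47 at 10000 nM in pool 1. In pool 2, F9 with PCB 126 was 6.54 at 1 pM, 6.66 at 10 pM, 6.54 at 0.1 nM, 6.20 at 1 nM, 5.97 at 10 nM, 6.27 at 1000 nM and 5.56 at 10000 nM. The arrays of 10 nM and above thus lay below those of 0.1 nM and below in each pool.

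F9 fell with PCB 126 dose by 0.13 ± 0.03 per decade (adjusted p = 0.0168, limma), with -0.14 ± 0.04 in pool 1 and -0.13 ± 0.04 in pool 2. With TCDD its slope was -0.086 ± 0.031 (adjusted p = 0.1495, limma). Against vehicle the 2 highest doses differed by -0.51 ± 0.24 with TCDD and -0.52 ± 0.24 with PCB 126, neither called. These differences were -0.068 and -0.074 without the vehicle array of pool 1, so they rest on that array. The PCB 126 slope was -0.12 ± 0.04 and not called without the 3 arrays that stood apart (adjusted p = 0.0867, limma).

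Asgr2 encodes the minor chain of the asialoglycoprotein receptor, which clears desialylated glycoproteins from blood. Its signal was dim, above the limit of 3.71 on 8 of 26 arrays. GCRMA, a method named in the processing notes, sets low signals close together. Those 8 were the 2 vehicle arrays, the 5 TCDD arrays up to 10 pM and 1 of 12 PCB 126 arrays. All 7 TCDD arrays from 0.1 nM upward lay under the limit, so the probe set passed the filter through the arrays where it is high, and its slope is given as a description. The vehicle arrays read 3.93 and 3.97. TCDD gave 3.72 at 0.01 pM, 3.88 at 1 pM, 3.44 at 0.1 nM, 3.31 at 10 nM and 3.23 at 316 nM in pool 1. In pool 2 it gave 4.37 at 0.01 pM, 4.53 at 1 pM, 4.27 at 10 pM, 3.52 at 0.1 nM, 3.42 at 1 nM, 3.13 at 10 nM and 3.36 at 316 nM. Arrays at or below 10 pM TCDD all lay above those at or above 0.1 nM. PCB 126 arrays lay between 3.12 and 4.08 with a median of 3.43, and 11 of the 12 were below both vehicle arrays.

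The TCDD slope of Asgr2 was -0.14 ± 0.03 per decade (adjusted p = 0.00484, limma), with -0.081 ± 0.037 in pool 1 and -0.20 ± 0.04 in pool 2. With PCB 126 the slope was -0.041 ± 0.028 (adjusted p = 0.411, limma). The difference of the slopes was -0.10 ± 0.04 (95% interval -0.18 to -0.02, unadjusted p = 0.0189, adjusted p = 0.577, limma) and did not pass. At the 2 highest doses Asgr2 differed from vehicle by -0.69 ± 0.18 with TCDD and -0.67 ± 0.18 with PCB 126 (adjusted p = 0.0705 and 0.0708, limma).

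Asgr1 encodes the major chain of the same receptor, and its probe sets disagreed. Over the 26 arrays, with pool means removed, they had r = 0.15, while pairs of probe sets for Alb, Ttr and Ambp had 0.75 to 0.92. The first ran from 7.18 to 7.84 with a median of 7.41 in pool 1, and from 6.38 to 7.45 with a median of 6.94 in pool 2. The second ran from 4.58 to 6.51 (median 6.06) and from 4.76 to 6.93 (median 6.61). Slopes with TCDD were -0.056 ± 0.028 on the first and 0.076 ± 0.058 on the second, of opposite sign. With PCB 126 they were -0.034 ± 0.028 and -0.10 ± 0.06. None of these 4 slopes was called.

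Alb encodes serum albumin, the main plasma carrier of fatty acids and many drugs. Its brightest probe set read 14.22 and 14.33 in vehicle, 13.83 to 14.501 on TCDD arrays and 13.72 to 14.47 on PCB 126 arrays. Both arrays of 10 nM TCDD and of 10 nM PCB 126 lay below both vehicle arrays (13.84 and 14.16, and 13.72 and 14.17), and both of 1 pM PCB 126 lay above them (14.44 and 14.47). The full ranges of the chemicals overlapped vehicle. The TCDD slopes of the 3 tested probe sets were -0.059 ± 0.020, -0.057 ± 0.026 and -0.039 ± 0.021, and the PCB 126 slopes were -0.053 ± 0.021, -0.046 ± 0.026 and -0.047 ± 0.021. None was called (adjusted p from 0.127 to 0.392, limma). With TCDD the brightest set had -0.096 ± 0.027 in pool 1 and 0.015 ± 0.026 in pool 2, and the difference of 0.11 ± 0.04 did not pass (unadjusted p = 0.00723, adjusted p = 0.315, limma). For TCDD slopes between pools, 0 members were called by limma against 0.0577% of all probe sets, with 4 of 12 members and 444 of all (8.54%) at an unadjusted p below 0.05. Asgr2 is among the 12 and is not counted as support.

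Ttr encodes transthyretin, which carries thyroxine and, with retinol-binding protein, retinol. A further probe set lists Ttr together with Mt1f and Mt1 and was not used. The brighter of its own probe sets read 11.35 and 11.76 in vehicle. On TCDD arrays it ran from 9.80 at 0.1 nM in pool 1 to 11.88 at 10 pM in pool 2, and on PCB 126 arrays from 10.47 at 10 nM in pool 1 to 11.88 at 10 pM in pool 2. In both pools its lowest PCB 126 values were at 10 nM and above. The TCDD slopes of the pair were -0.078 ± 0.028 and -0.077 ± 0.039, and the PCB 126 slopes -0.083 ± 0.028 and -0.11 ± 0.04. None was called with all arrays (adjusted p from 0.107 to 0.373, limma). Without the array of 0.1 nM TCDD of pool 1, the brighter set's PCB 126 slope was -0.11 ± 0.03 and called (adjusted p = 0.0157, limma). Without the 3 arrays that stood apart, its TCDD slope was -0.075 ± 0.028 (adjusted p = 0.152, limma) and its PCB 126 slope -0.14 ± 0.03 (adjusted p = 0.0276, limma), and those of the other were -0.077 ± 0.020 and -0.11 ± 0.02 (adjusted p = 0.0297 and 0.0155, limma).

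**Figure D2:**
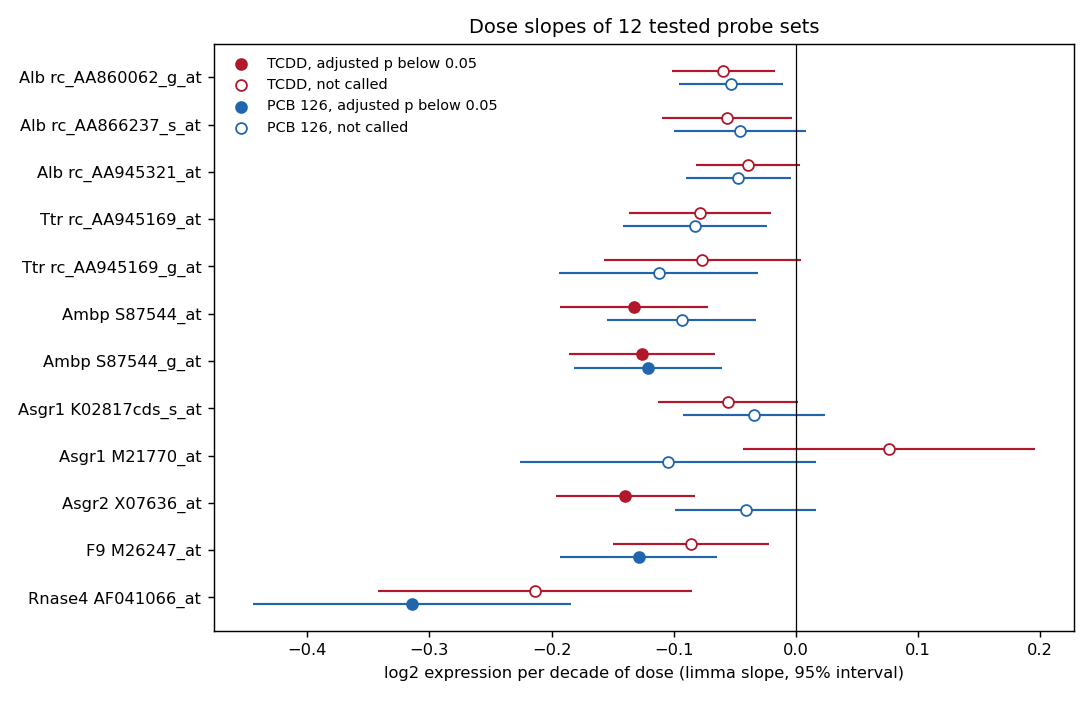
Slopes of the 12 tested probe sets in log2 per decade of dose with 95% intervals, red for TCDD and blue for PCB 126, filled where the adjusted p was below 0.05. The steepest is Rnase4 with PCB 126 at -0.31, and 1 probe set for Asgr1 has a positive TCDD slope of 0.076.

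The counts of called slopes depended on single arrays, and so did those over all probe sets, of which 161 (3.1%) were called either way with TCDD and 221 with PCB 126. The TCDD counts below include Asgr2, except in 1 pool alone, and its call is not counted as support. Of the TCDD slopes, 5 of 12 were called without the 3 arrays that stood apart, beside 214 of all (4.12%), and 5 without the array of 0.1 nM of pool 1, beside 212. Without the array of 316 nM of pool 2, 6 were called, beside 257 of all. Of the PCB 126 slopes, 1 of 12, that of Rnase4, remained called when the 1 pM array of pool 1 was left out, and likewise when the 10000 nM array of pool 2 was, beside 53 and 113 of all. There were 5 without the array of 0.1 nM TCDD of pool 1, beside 301 of all. Without the 3 arrays 3 were called, Rnase4 and both for Ttr, beside 154 of all. Fitted in 1 pool alone, 0 of 12 TCDD slopes were called in either pool by limma, beside 0 of all in pool 1 and 12 of all in pool 2. Fitted on its own 12 arrays, TCDD had 1 call, that of Asgr2, beside 46 of all, and Ambp had an adjusted p of 0.0692 (limma). Without pool as replicate block, 2 were called for each chemical, beside 39 and 56 of all, and F9 lost its PCB 126 call (adjusted p = 0.432, limma).

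The mean of the 2 highest doses lay below vehicle on 12 of 12 probe sets for each chemical, beside 63.1% of all with TCDD and 55.7% with PCB 126, and the 2 comparisons share the vehicle arrays. Asgr2 is 1 of the 12 and passed the filter through vehicle and low-dose arrays. Its difference is thus not counted as support, here or in the counts that follow. With TCDD 2 of 12 were called lower, both for Ambp, against 0.904% of all probe sets. With PCB 126 3 of 12 were called lower, both for Ambp and the 1 for Rnase4, against 1.48%. Over all probe sets 117 and 158 were called either way. Without the vehicle array of pool 1, or that of pool 2, 0 members were called for either chemical in limma, beside 55 and 52 of all with TCDD and 81 and 80 with PCB 126. Without the 3 arrays that stood apart, 3 were called with TCDD, Rnase4 in addition, and 2 with PCB 126, the dimmer set for Ambp no longer among them, beside 126 and 140 of all. After median centring of the arrays, 0 were called by limma for TCDD and 1 for PCB 126, beside 66 and 119 of all. Without the replicate block, 1 was called for each, beside 27 and 39 of all, and Rnase4 with PCB 126 was not (adjusted p = 0.127, limma). The number was 1 with TCDD without its 316 nM array of pool 1, beside 61 of all, and 1 with PCB 126 without its 10000 nM array of pool 2, beside 117. At unadjusted p below 0.05, 5 of 12 passed with TCDD and 6 of 12 with PCB 126, against 10.9% and 13.3% of all. The median difference of the 12, Asgr2 included, was -0.47 log2 with TCDD and -0.52 with PCB 126. Over all probe sets it was -0.063 and -0.018. As the members were chosen with earlier results of these data known, these comparisons with all probe sets are a description.

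TCDD and PCB 126 were compared directly at the 5 doses they share, from 1 pM to 10 nM in steps of 1 decade, with 1 array of each chemical at 10 pM and 1 nM. Rnase4 was lower with TCDD in every same-pool pair of arrays from 1 pM to 1 nM. At 0.1 nM it read 5.06 and 6.10 with TCDD and 7.63 and 7.60 with PCB 126, a difference of -2.03 ± 0.38 log2 (95% interval -2.85 to -1.22, adjusted p = 0.0718, limma). At 10 nM the difference was 0.06 ± 0.38 (95% interval -0.76 to 0.87). Averaged over the 5 doses it was -0.94 ± 0.20 log2 (95% interval -1.36 to -0.51, unadjusted p = 0.000334, adjusted p = 0.0673, limma), which did not pass. Among the alternatives its adjusted p ran from 0.0352, without the 0.1 nM TCDD array of pool 2, to 0.685.

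The dimmer probe set for Ttr averaged -0.36 ± 0.10 over the matched doses (adjusted p = 0.148, limma), and the brighter one was lower with TCDD by -1.09 ± 0.29 at 0.1 nM (adjusted p = 0.237, limma). Ambp averaged -0.13 ± 0.10 (95% interval -0.36 to 0.09), F9 -0.31 ± 0.15 (-0.63 to 0.0044) and Alb -0.17 ± 0.10 (-0.37 to 0.04). By the brightest probe set, Asgr2 was the 1 of the 7 genes that averaged higher with TCDD, at 0.20 ± 0.11 (95% interval -0.04 to 0.44), with 0.73 ± 0.21 at 1 pM and -0.28 ± 0.21 at 0.1 nM. At 1 pM it read 3.88 with TCDD and 3.56 with PCB 126 in pool 1, and 4.53 and 3.39 in pool 2, whose PCB 126 array is the one that goes against its label. Without the 3 arrays that stood apart, the Asgr2 TCDD minus PCB 126 at matched doses averaged 0.14 ± 0.12. For the mean of the matched doses limma called 0 of 12 member probe sets, against 0.115% of all, with 3 of 12 and 549 of all (10.6%) at an unadjusted p below 0.05. At 0.1 nM it called 0 of 12, against 0.0385%, with 4 of 12 and 756 of all at an unadjusted p below 0.05. For the difference of the dose slopes it called 0% of all probe sets and 0 of 12, with 342 and 2 at an unadjusted p below 0.05. These tests do not show that the chemicals act alike on the genes.

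**Figure D3:**
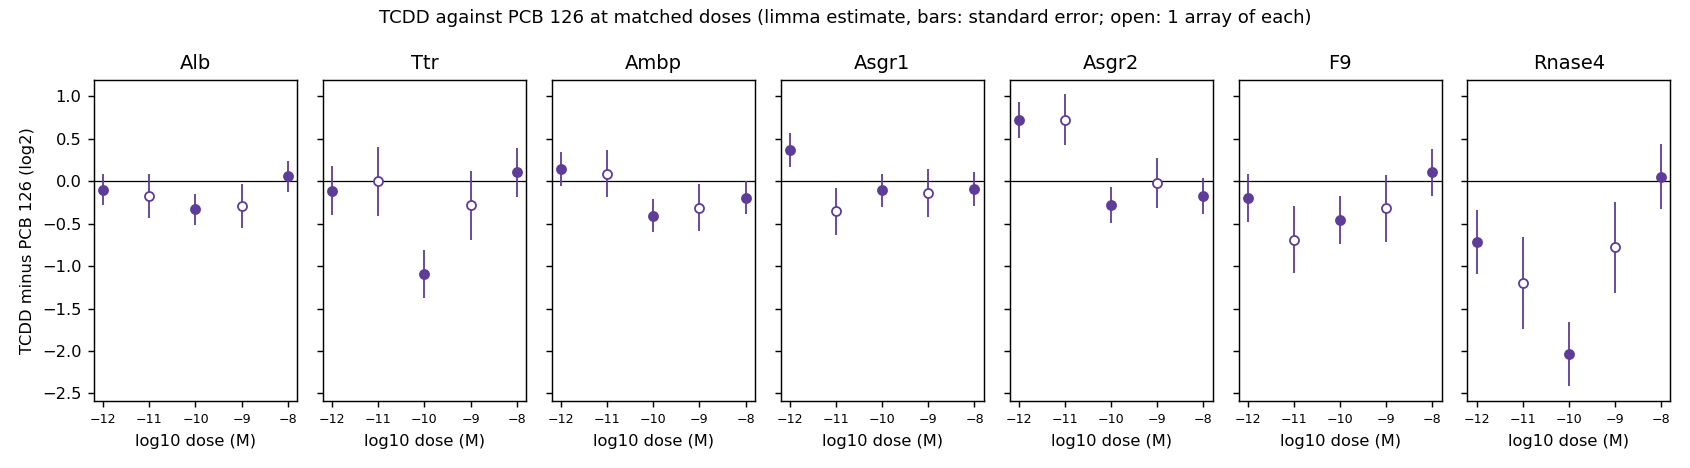
TCDD minus PCB 126 in log2 at each matched log10 molar dose for 7 genes, with standard errors of the group model and open circles where each chemical had 1 array. Rnase4 reaches -2.03 at 0.1 nM and is at 0.06 at 10 nM, and Asgr2 starts at 0.73 at 1 pM.

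The pools differed in 7 of 12 probe sets. Pool 2 was higher in 4, against 40% of all probe sets, and lower in 3, against 39.7%. F9 was lower in pool 2 by -0.61 ± 0.11 log2 (adjusted p = 1.31e-05, limma). Ttr was higher in pool 2 on both probe sets, by 0.39 ± 0.10 and 0.55 ± 0.13. For Asgr1, Alb and Ambp, probe sets of the same gene did not move alike between pools. Those for Asgr1 had -0.54 ± 0.10 and 0.55 ± 0.20, both called and opposite in sign. Of those for Alb, 1 had 0.66 ± 0.09 and another -0.02 ± 0.07, and those for Ambp had -0.30 ± 0.10 and -0.025. Pool and RNA quality cannot be told apart here. After median centring, 11 of 12 were called, beside 84% of all probe sets, the median over all 5197 went from 0.024 to 0.30, and the signs of 1 set for Alb and 1 for Ambp turned, to 0.25 each. The F9 difference was then -0.34 ± 0.11 and those for Asgr1 -0.27 ± 0.10 and 0.83 ± 0.22.

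**Figure D4:**
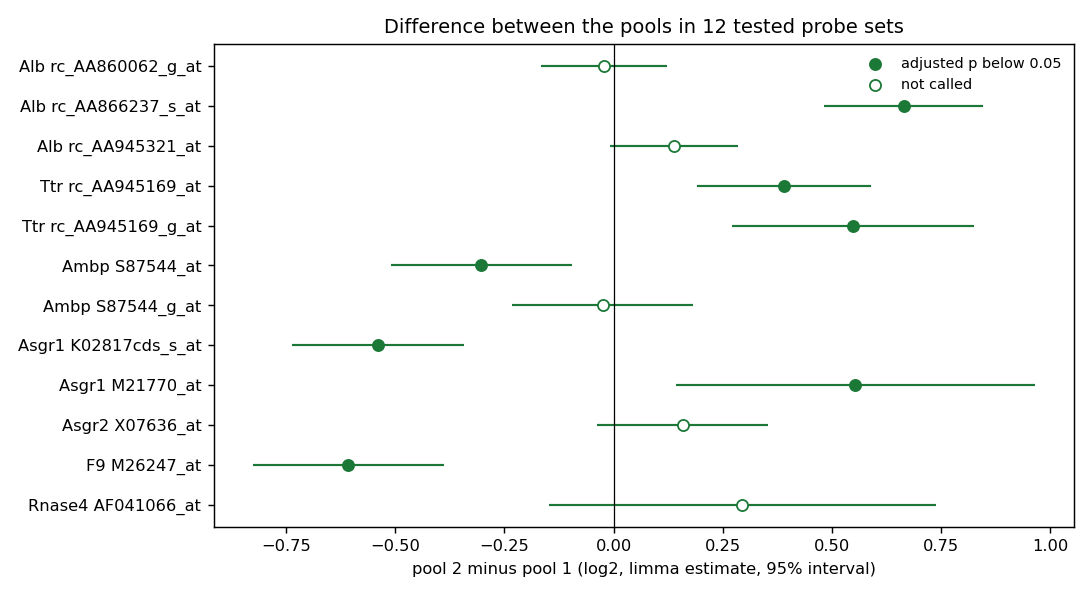
Pool 2 minus pool 1 in log2 for the 12 tested probe sets with 95% intervals, filled where the adjusted p was below 0.05. The probe sets for Asgr1 lie on opposite sides of 0, at -0.54 and 0.55.

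Other genes of the same roles were counted from lists chosen with earlier results of these data known, at 1 probe set per gene. Over all 3034 genes counted this way, 2.93% were called either way with TCDD and 3.89% with PCB 126. Those called lower were 1.58% and 2.67%. Of 19 other carriers and plasma proteins that were measured, 0 rose and 1 fell with TCDD, and 0 rose and 2 fell with PCB 126. Apcs, the serum amyloid P component, had -0.24 ± 0.06 with TCDD and -0.26 ± 0.06 with PCB 126 and fell with both. Selenop, a selenium carrier, fell with PCB 126 by 0.22 ± 0.05. Of 11 other coagulation genes, 1 rose with TCDD, the fibrinogen chain Fgg at 0.11 ± 0.03, and 0 were called with PCB 126 (adjusted p of Fgg 0.353, limma). Of 19 other surface receptors and transporters, Ceacam1, an adhesion molecule, rose with TCDD by 0.17 ± 0.04 and the glucose transporter Slc2a2 fell by 0.13 ± 0.04. With PCB 126 the efflux pump Abcc2 rose by 0.11 ± 0.03 and the growth factor receptor Egfr fell by 0.11 ± 0.03. In these 3 lists together, 28 of 49 TCDD slopes and 19 of 49 PCB 126 slopes were negative, and the list medians lay between -0.018 and 0.016. Over all 3034 genes, 1991 and 1359 slopes were negative.

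In the list set beside Rnase4, 2 genes were measured, a ribonuclease and an inhibitor of ribonucleases. The pancreatic-type ribonuclease Rnase1 had 0.036 ± 0.035 with TCDD and the inhibitor Rnh1 0.013 ± 0.032, neither called. Of 7 measured hepatocyte transcription factors, Cebpb rose with both chemicals, by 0.30 ± 0.05 and 0.24 ± 0.05, and the other 6 were not called with either. Of 5 measured AhR targets, 5 rose with TCDD and 4 with PCB 126.

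Genes with the most similar pattern were found by Pearson r over the 26 arrays after removing pool means, as a description, since all points share the same arrays and doses. Rnase4 was nearest to the stress gene Nupr1 (r = 0.96), S100a10 (0.95) and Serpinb9 (0.94). Ambp was nearest to the P450 Cyp2c12 (0.95), Spp2 (0.93) and the sulfotransferase Sult1a1 (0.93). Ttr was nearest to the apolipoprotein genes Apoa2 (0.92) and Apoc3 (0.91), F9 to Mug1 (0.89) and Cyp2c7 (0.88), and Alb to Spp2 (0.82) and Phgdh (0.81). Asgr2 was nearest to Amy2a3 (0.84) and Asgr1 to Gpx4 (0.71). Among the 21 pairs of the 7 genes themselves, r ran from 0.23, Ttr with Asgr1, to 0.85, Ttr with Rnase4, with a median of 0.64.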

How the data were processed

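The values are log2 expression as deposited by the authors, 1 column per array. The submitters' processing notes name GCRMA 2.8.0 and RMA. Which of them made the deposited values, and with which settings, is not given in the sources used here. GCRMA compresses differences between dim signals, and whether this holds for these values was not tested.

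Groups (vehicle and 7 doses of each chemical) and pools came from the labels, and 0 columns were without a sample. Of 8799 probe sets, 59 controls were left out, and the filter kept 5197. Gene symbols came from a platform table. Fits used lmFit and robust, trended eBayes of limma 3.58.1 (R 4.3.3): dose slopes per chemical (20 residual degrees of freedom), 15 groups (10) and slopes by pool (16). Pool was the replicate block, since arrays of a pool share their animals, per the labels. In 11 groups with both pools, deviations from group means correlated between same-pool arrays with r from 0.461 to 0.892. The scripts were tested on simulated data.

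The named genes were every probe set of 1 member alone, the 3 most similar genes per member (the nearest are printed for some) and up to 4 genes per list. The members and lists were chosen with earlier results of these data known. Alternatives were the block, median centring, filters, plain eBayes, dose ranks, subsets of doses and arrays, and leaving out each array.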

Additional observations from a re-analysis of the deposited data

How the results depend on the processing

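Of the 12 probe sets, 3 had called slopes with each chemical, beside 161 and 221 over all probe sets. Counts after a slash are those over all. For TCDD the number was 1 / 46 when fitted on its own arrays, 5 / 298 when vehicle counted as a dose 1 decade under the lowest, 5 / 193 after dropping each top dose, 0 / 0 in pool 1 alone, 0 / 12 in pool 2 alone and 5 / 214 without the 3 arrays that stood apart, an alternative chosen after seeing the data. For PCB 126 it was 6 / 367 when fitted on its own arrays, 1 / 106 after dropping each top dose, 1 / 104 on doses with both pools and 0 / 0 in pool 1 alone. Leaving out each array in turn gave 3 to 6 for TCDD and 1 to 5 for PCB 126. Without the replicate block, 2 slopes were called for each chemical. At the high doses against vehicle, TCDD gave 5 / 199 with vehicle and the lowest dose as control, 1 / 27 with no replicate block and 0 / 66 after median centring, and PCB 126 gave 1 / 39 and 1 / 119 for the latter pair; leaving out arrays gave 0 to 3 for each. The matched doses gave 0 to 2, the latter with 55 over all without the 0.1 nM TCDD array of pool 2. The pool difference gave 11 / 4368 after median centring. The Alb slope with TCDD was 0.015 in pool 2 alone, Asgr1 had 0.076 with its other probe set, and its matched-dose mean ran from -0.097 to 0.0078 when arrays were left out, positive without either 10 pM array. The cause of these changes was not tested. The difference of slopes and the slopes by pool gave 0 called members in every alternative run. Dim signal limits Asgr2. The TCDD slope counts here include it, except in 1 pool alone, as does the 5 / 199 at the high doses. Its calls are not counted as support.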
